A study of Mus musculus with 3 samples.

Results

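Chromatin accessibility was described over 8 genes of the Krüppel-like factor (KLF) family, *Klf1*, *Klf2*, *Klf3*, *Klf4*, *Klf6*, *Klf10*, *Klf12* and *Klf13*, of 21670 protein-coding genes annotated on chromosomes 1 to 19 and X. The genes were listed by name, with earlier results of these data known, and the rule itself used no measured value. Each was examined over its gene body and 50 kb on either side, in bins of 500 bp on the mm10 (GRCm38) genome. The data came from 1 preparation of long-term hematopoietic stem cells (HSCs), sorted as LSKCD150+CD48-CD34- cells from the bone marrow of 8-week-old wild-type female mice and profiled by DOGMA-seq, which reads open chromatin (ATAC), RNA and antibody tags of the same cells from 3 libraries. There was no treatment, no second genotype and no replicate, and the sources used here do not state the number of mice. The values below are from the ATAC library, the intervals are exact 95% intervals that cover counting error only, a count of 0 is given with the share that 3 counts would make, and no difference between genes was tested across animals.

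Of 3757 barcodes called as cells, 3108 had more than 3000 fragments in peaks and were used. They held 37137164 fragments on these chromosomes, with a median of 11457 fragments per cell and a range of 3977 to 194399. A mean of 7.05 fragments fell in a 500-bp bin, and 69.1% of the read pairs of called cells were duplicates that had been collapsed. The sorted identity was compared with marker genes. The promoters of 11 of 12 HSC markers were open, from *Slamf1* at 3.31% of cells to *Hlf* at 40.0%, whereas *Ly6a*, which encodes Sca-1, was not open at 1.19% of cells. Promoters were open for 1 of 6 erythroid markers found, 0 of 4 B cell markers, 0 of 5 T cell markers, 1 of 5 neutrophil and macrophage markers and 4 of 4 megakaryocyte markers, against 59.1% of all protein-coding genes.

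KLF proteins are transcription factors with zinc fingers at their carboxyl end, by which they bind GC-rich and CACCC elements, sequences that the related SP factors also bind. The amino ends differ and set the partners. *Klf1*, *Klf2*, *Klf4* and *Klf6* encode factors known mainly as activators, *Klf3* and *Klf12* encode repressors that recruit CtBP, and *Klf10* and *Klf13* encode factors that bind the Sin3A co-repressor. KLF1 is the erythroid member and drives globin, heme and red cell membrane genes, and *Klf3* is among its known targets.

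Sequences of promoters and open sites were read from the genome. The first pair contrasts the member with the lowest promoter accessibility with the member with the highest. They are the parts of the RefSeq promoter windows (GRCm38.p6) that lie upstream of the principal GENCODE start, at chr8:84901732-84901927 on the plus strand for *Klf1* and at chr7:63938916-63939165 on the minus strand for *Klf13*. Capitals mark matches, on either strand, to the letters of 8 motifs: the KLF and SP box CCNCNCCC, the string AGATAA of GATA factors, the strings AGGAAG (without a CpG) and CGGAAG (with a CpG) of ETS factors, the string TGTGGT of RUNX factors, the string TGANTCA of AP-1, the composite of an E-box part and a GATA site known from erythroid enhancers, in which CTG is followed by any 8 bases and by GATAA, and the core string TGACGT of the CRE. Overlapping matches run together in 1 stretch of capitals.
Klf1 promoter: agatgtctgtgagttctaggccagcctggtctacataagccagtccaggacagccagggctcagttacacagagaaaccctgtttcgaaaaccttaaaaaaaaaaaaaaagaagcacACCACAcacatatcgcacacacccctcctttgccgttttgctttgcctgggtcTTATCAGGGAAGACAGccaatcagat
Klf13 promoter: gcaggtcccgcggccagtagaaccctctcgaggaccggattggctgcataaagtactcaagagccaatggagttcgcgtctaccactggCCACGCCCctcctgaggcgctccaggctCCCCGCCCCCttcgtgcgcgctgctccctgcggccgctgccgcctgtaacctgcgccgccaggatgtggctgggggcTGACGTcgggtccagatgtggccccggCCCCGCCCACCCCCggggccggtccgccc
The *Klf1* sequence held a match to RUNX and to the composite of E-box and GATA, and none to the KLF and SP box. The *Klf13* sequence held several KLF and SP boxes and a CRE core.

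The second set holds 300 bp around the summit, the point with most fragment ends, of 3 open sites, all on the plus strand. The site upstream of *Klf2* (chr8:72295801-72296100) had the largest share of cells among the distal sites of the 8 windows. The site 11.3 kb downstream of the *Klf1* start (chr8:84913101-84913400) had the largest share among the distal sites of that window. The site inside *Klf1* (chr8:84903001-84903300, in exon 2) was added after its values were seen.
Klf2 upstream site: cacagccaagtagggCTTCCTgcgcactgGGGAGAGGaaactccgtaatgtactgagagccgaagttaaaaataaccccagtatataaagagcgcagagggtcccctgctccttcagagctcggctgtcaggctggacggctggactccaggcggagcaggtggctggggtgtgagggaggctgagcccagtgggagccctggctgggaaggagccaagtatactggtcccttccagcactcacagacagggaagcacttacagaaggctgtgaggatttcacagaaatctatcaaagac
Klf1 downstream site: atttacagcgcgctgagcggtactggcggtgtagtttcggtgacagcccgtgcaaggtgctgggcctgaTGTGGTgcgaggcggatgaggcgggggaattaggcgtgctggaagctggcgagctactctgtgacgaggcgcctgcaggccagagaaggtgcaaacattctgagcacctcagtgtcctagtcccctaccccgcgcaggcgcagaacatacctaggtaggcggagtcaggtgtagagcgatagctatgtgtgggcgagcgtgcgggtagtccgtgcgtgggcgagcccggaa
Klf1 exon 2 site: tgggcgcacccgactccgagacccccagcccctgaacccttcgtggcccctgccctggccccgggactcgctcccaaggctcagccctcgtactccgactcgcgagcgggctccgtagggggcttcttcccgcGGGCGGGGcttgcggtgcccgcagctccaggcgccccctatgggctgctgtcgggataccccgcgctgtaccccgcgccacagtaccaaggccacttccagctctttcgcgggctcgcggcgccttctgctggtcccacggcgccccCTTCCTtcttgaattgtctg
The *Klf2* and exon 2 sites each held a KLF and SP box and an AGGAAG match. The downstream site of *Klf1* held a RUNX match alone.

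A promoter was taken as 500 bp either side of the principal transcript start, and a fragment was counted where at least 1 of its ends fell. A bin was called open when at least 2% of the cells had a fragment end in it, and a promoter when the bin of its start was open. By this measure 7 of the 8 members were open, against 59.1% of all protein-coding promoters, and *Klf1* was the member that was not. Across all promoters the median share of cells was 6.98%, with quartiles at 0.290% and 24.3%. The 7 open members lay between 39.4% and 75.9%, above the upper quartile, and *Klf1* lay below the median. With each cell thinned to 3000 fragments the 7 lay between 14.5% and 33.9%, and the quartiles of all promoters were not counted that way.

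*Klf1* (chr8:84901928-84905291, plus strand) had 93 promoter fragments (95% interval 75.1 to 114) in 85 cells, or 2.73% of cells (2.19% to 3.37%). Its start bin was covered in 1.67% of cells, just under the 2% limit, and the promoter was called open when the limit was 1% or the bins were 1000 bp. The median of the other 7 promoters was 3181 fragments, so *Klf1* had 0.0292 of that value, and the other promoters had 20.6 to 56.1 times its fragments. All members were therefore far above *Klf1* in the pooled cells, and the intervals did not come near each other.

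The few *Klf1* promoter fragments also had another length. Fragments shorter than the DNA of 1 nucleosome core made up 14.0% of them (7.66% to 22.7%), against 58.3% to 73.0% at the other 7 promoters. Median fragment length was 208 bp at *Klf1* and 90 to 106 bp at the others. Few short fragments were common at weakly covered promoters. Among 1792 promoters with 50 to 150 fragments the median short share was 29.5%, and 7.42% of them were at or below *Klf1*, whereas 5374 promoters with at least 1000 fragments had a median of 59.9%. Of the 93 fragments, 42 had their other end outside the promoter window, 25 of them on the downstream side.

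**Figure D1:**
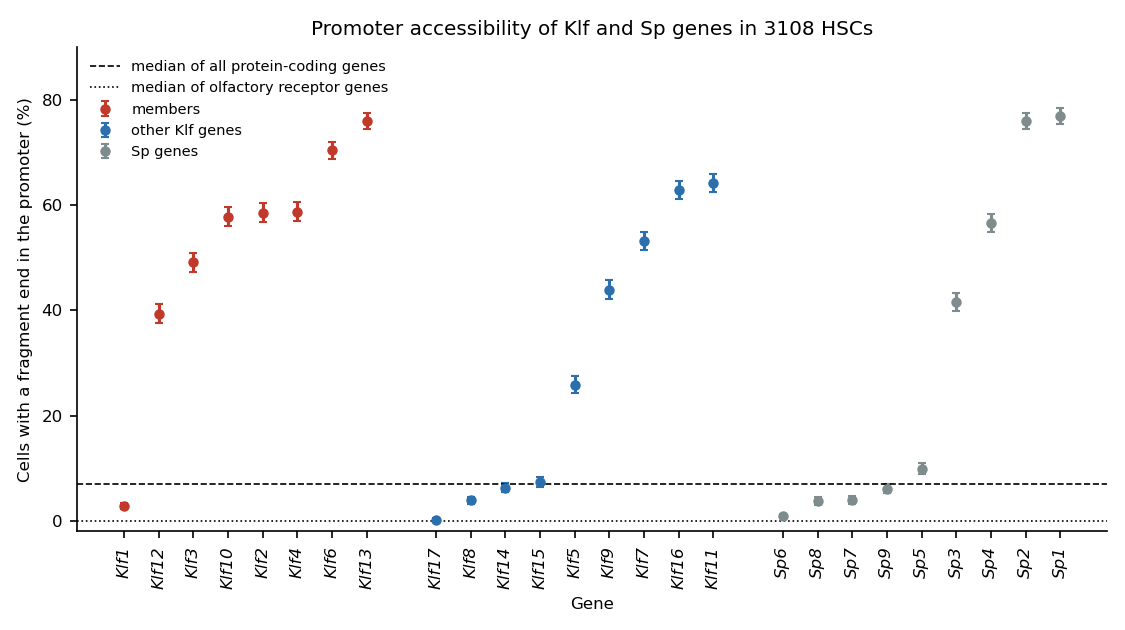
Share of 3108 cells with a fragment end within 500 bp of the principal start, on the y axis in percent, for the 8 members, the 9 other Klf genes and 9 Sp genes. Points are shares and bars exact 95% binomial intervals over cells of 1 library; *Klf1* lies at 2.73% and the other members at 39.4% to 75.9%.

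Among the other activators, *Klf6* (chr13:5861482-5870394), a broadly expressed factor, was the highest, with 4094 promoter fragments and 70.4% of cells (68.8% to 72.0%). *Klf2* (chr8:72319033-72321656), known for keeping T cells quiescent and for its response to flow in endothelium, had 3229 fragments and 58.6% of cells (56.8% to 60.3%). *Klf4* (chr4:55527143-55532466), a reprogramming factor that also acts in monocytes, had 3087 fragments and 58.8% of cells (57.0% to 60.5%). The intervals of *Klf2* and *Klf4* overlapped, and that of *Klf6* lay above both.

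Of the repressors that recruit CtBP, *Klf3* (chr5:64803388-64832901) had 2564 promoter fragments and 49.1% of cells (47.3% to 50.9%). *Klf12* (chr14:99870632-100284679), the longest of the 8 genes at 414 kb, had 1918 fragments and 39.4% of cells (37.6% to 41.1%), the lowest value among the open members. Of the factors that bind Sin3A, *Klf10* (chr15:38291463-38300706), induced early by TGF-beta, had 3181 fragments and 57.8% of cells (56.0% to 59.5%). *Klf13* (chr7:63886351-63938915) had 5221 fragments and 75.9% of cells (74.4% to 77.4%), rank 97 of 21670 protein-coding promoters. In rising order the members were *Klf1*, *Klf12*, *Klf3*, *Klf10*, *Klf2*, *Klf4*, *Klf6* and *Klf13*. The intervals of the neighbors *Klf10*, *Klf2* and *Klf4* overlapped, and the other neighbors were apart by more than counting error.

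A cell seldom lacked all of these promoters. At least 1 member's promoter had a fragment end in 3097 of 3108 cells (99.6%), the median was 4 promoters per cell, 133 cells had 7 and 0 cells had all 8 (3 counts would be a share of 0.0965%). Where a promoter was covered, more than 1 fragment was found in 62.3% of the covered cells at *Klf13*, in 37.0% at *Klf12* and in 8.24% at *Klf1*. Barcodes that were not called as cells gave between 4.10% and 5.88% of the promoter fragments of each member, the latter at *Klf1* from 6 fragments.

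The share of cells moved with depth. When cells were split into quartiles by fragments, with medians of 7466, 10501, 12389 and 15546.5 fragments, *Klf13* was covered in 63.6%, 74.1%, 81.3% and 84.6% of cells. *Klf12* was covered in 27.3%, 39.1%, 41.8% and 49.2%. *Klf1* was covered in 1.67%, 2.96%, 2.19% and 4.11%, and was the lowest member in each quartile, as *Klf13* was the highest. A cell without a fragment is therefore not shown to have a closed promoter.

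**Figure D2:**
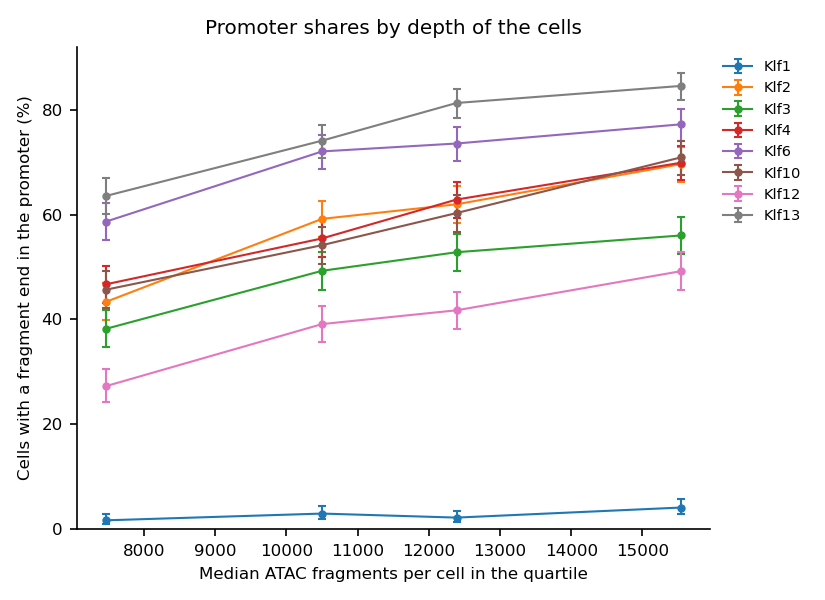
Share of cells with a promoter fragment end (y axis, percent) in quartiles of cells by ATAC depth (x axis, median fragments per cell), for the 8 members. Points are shares of 776 to 778 cells and bars exact 95% binomial intervals; *Klf13* goes from 63.6% to 84.6% and *Klf1* stays at or below 4.11%.

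The breadth of the open promoter was measured as the run of adjacent open bins that holds the start. Open promoters had a median domain of 1500 bp, and 20.9% of them were at least 2500 bp wide. Of the 7 open members, 6 reached 2500 bp and *Klf3*, with 2000 bp, did not. This count was 3 at the limit of 5% of cells (*Klf10*, *Klf12* and *Klf13*), and 2 (*Klf10* and *Klf13*) with short fragments alone or with each cell thinned to 3000 fragments. It was 7, with *Klf3* at 2500 bp, when bins were moved by 250 bp, and 8, with *Klf1* and *Klf3* included, with 1000-bp bins or the limit of 1%. *Klf2* had the widest domain, 7000 bp, from 1532 bp upstream of its start to 5467 bp downstream, and 0.406% of open promoters were as wide. This domain extended past the end of the gene, which is 2.62 kb long. Its width depended on the settings. It was 2000 bp at the limit of 5% of cells and 8500 bp at 1%, 3500 bp with all called cells, 3000 bp with at least 2 read pairs, and 1500 bp with short fragments alone or with each cell thinned to 3000 fragments. *Klf13*, tied with *Klf10* where all called cells were used, was the widest with all called cells, short fragments, at least 2 read pairs, thinned cells or the 5% limit.

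Domains of 4500 bp were found at *Klf6*, *Klf10* and *Klf13*, of 4000 bp at *Klf4* and of 3500 bp at *Klf12*. At 5% of cells these were 3500 bp at *Klf10*, 4000 bp at *Klf13*, 2500 bp at *Klf12* and 1500 bp at *Klf4* and *Klf6*. *Klf6* also had 2000 bp with all called cells, 1500 bp with at least 2 read pairs and 2500 bp with bins moved by 250 bp. Over whole domains, 88.2% of cells had a fragment end in that of *Klf13* and 86.6% in that of *Klf10*, against 66.5% for *Klf2*.

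In steps of 100 bp the fragment ends peaked within 300 bp upstream of the start at *Klf2*, *Klf3*, *Klf4*, *Klf6* and *Klf13*. *Klf13* reached 2330 ends in a step. *Klf12* peaked in the first step after the start, with 648 ends. *Klf10* had a pair of summits, and the higher one, with 1757 ends, lay in the step from 1500 to 1600 bp downstream of the principal start. That summit lies just before another annotated start of *Klf10*, 1624 bp downstream, whose promoter was covered in 63.6% of cells (61.9% to 65.3%), above the 57.8% of the principal start. The ends of *Klf1* peaked in the step from 1200 to 1300 bp downstream, with 1218 ends.

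**Figure D3:**
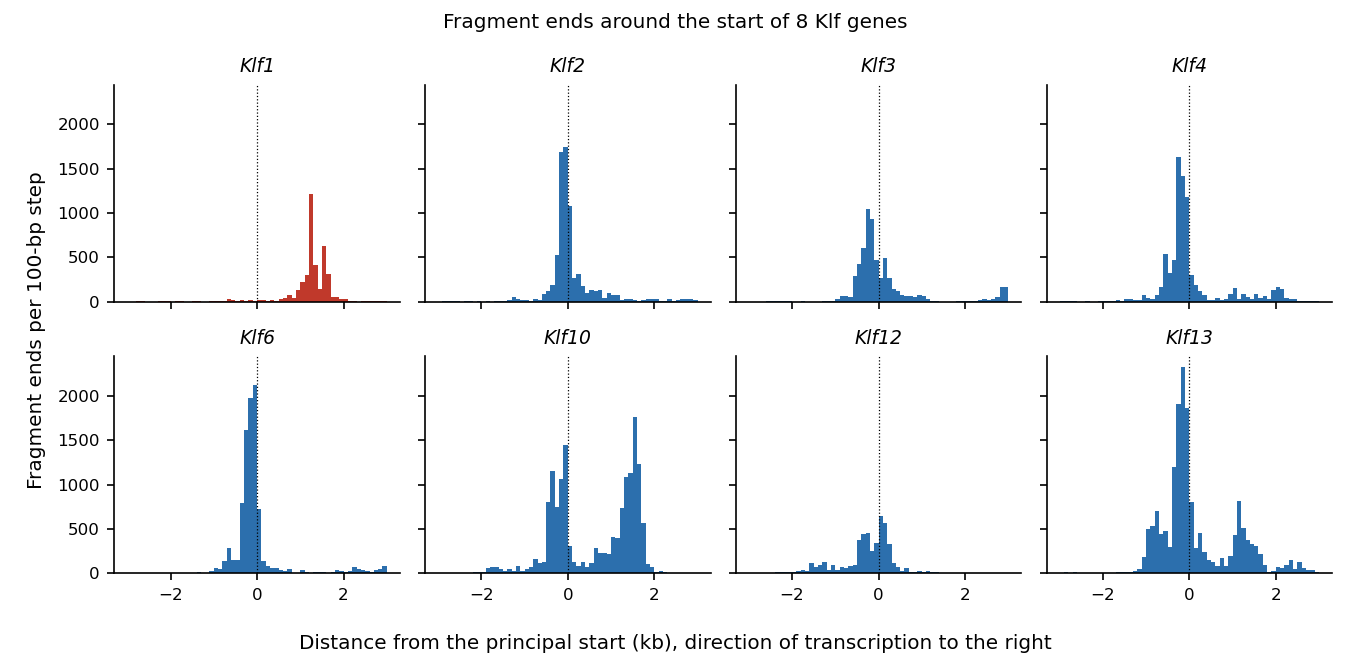
Number of fragment ends (y axis) in 100-bp steps from 3 kb upstream to 3 kb downstream of the principal start (x axis, kb) of each member, summed over 3108 cells of 1 library. *Klf13* is highest at 2330 ends near its start, *Klf10* has its higher peak of 1757 ends downstream, and *Klf1* has its peak of 1218 ends inside the gene.

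The start of *Klf1* was thus at the edge of the open limit while the gene itself was accessible. An open site of 2 kb (chr8:84902001-84904000) lay from 0.07 to 2.07 kb downstream of the start, with its summit 1.2 kb downstream in exon 2 (chr8:84902689-84903502), which is coding sequence. It had 1920 fragments in 1266 cells, or 40.7% of cells (39.0% to 42.5%), and 36.1% of cells had an end in its best bin. With fragments shorter than a nucleosome core alone it was covered in 23.6% of cells, and with each cell thinned to 3000 fragments in 14.5%. Its short fragments made up 46.7%, between the 14.0% of the *Klf1* promoter and the values of the other promoters. The promoter window, which reaches 500 bp downstream of the start, overlaps the first part of this site. At the limit of 1% of cells or with 1000-bp bins, the site and the start ran together in a domain of 3000 bp. The 300 bp at the summit of the site were 71.0% G and C with an observed over expected CpG ratio of 0.82. The ratio was 0.078 in the *Klf1* promoter, taken over the longer window of 500 bp either side of the start. This site was described after its values were seen, and it is outside the distal sites counted below because it lies within 1 kb of the start.

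The CpG ratio separated *Klf1* from the other members. It was between 0.63 at *Klf12* and 0.96 at *Klf4* in the promoters of the 7 open members, all at or above 0.6. Across the genome, 10390 promoters with a ratio of at least 0.6 had a median of 23.5% of cells, and 11280 promoters below it had a median of 0.354%. *Klf1*, at 2.73%, was therefore above the median of the CpG-poor promoters, and all 7 other members were above that of the CpG-rich ones.

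Other annotated coding starts of the members were less accessible than the principal one, except that of *Klf10*. A further *Klf10* start, 911 bp downstream of the principal one, was covered in 49.8% of cells. *Klf3* starts 8951 and 23421 bp downstream were covered in 12.0% and 0.193% of cells, and the nearer lay in an open run of 3.5 kb in intron 1 that was covered in 26.6%. The *Klf4* start 696 bp downstream was covered in 11.9%. *Klf13* starts 2614 and 14045 bp downstream were covered in 9.94% and 9.20%. At the *Klf12* start 134915 bp downstream, close to the start that RefSeq gives, 0 of 3108 cells had a fragment end, where 3 counts would be a share of 0.0965%.

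Over the 8 windows, 166 of 2659 bins were open (6.24%), against 2.94% of the bins in the bodies and 50-kb flanks of all protein-coding genes and 1.95% of all bins on these chromosomes. Among gene windows taken singly the median share was 3.76%, with quartiles at 1.13% and 7.89%, so 6.24% lay between the quartiles. The 6.24% became 2.48% with each cell thinned to 3000 fragments, 3.08% with short fragments, 3.23% at the limit of 5% and 10.6% at that of 1%. The background was not counted under those settings. Without *Klf12*, whose window of 514 kb holds many of the bins, the share was 9.45%. *Klf2* had the largest share of open bins at 15.5%, followed by *Klf1* at 13.0%, *Klf13* at 10.1%, *Klf10* at 8.18%, *Klf3* at 8.08%, *Klf6* at 6.39%, *Klf4* at 5.21% and *Klf12* at 1.17%. The windows of *Klf2* and *Klf1* were in the top of the distribution over 21755 gene windows, at the 93.6 and 89.6 percentiles (these windows include genes that have no transcript annotated as protein coding and so no promoter above), while that of *Klf12* was at the 25.2 percentile.

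**Figure D4:**
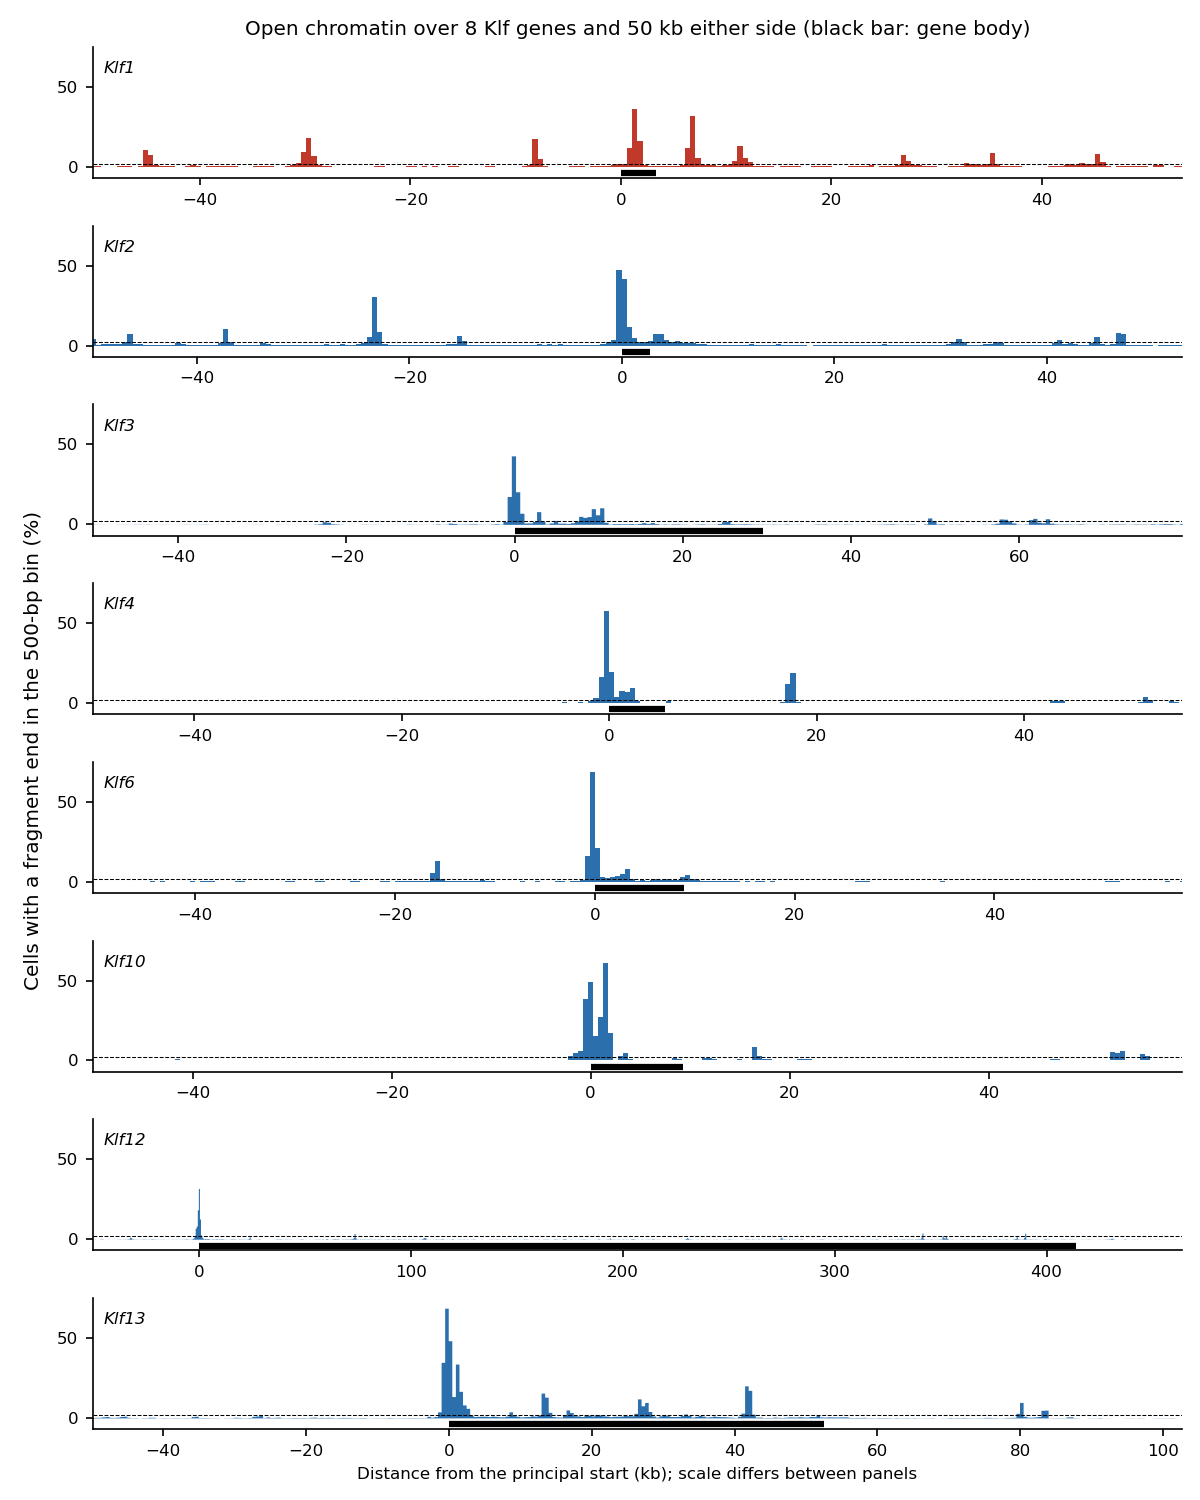
Share of 3108 cells with a fragment end in each 500-bp bin (y axis, percent) against the distance from the principal start (x axis, kb, on a scale of its own in each panel) for the windows of the 8 members. The dashed line is the 2% limit and the black bar the gene body; *Klf1* has its highest bin inside the gene at 36.1%, and *Klf2* has a distal bin at 30.7%.

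The fragments of the *Klf1* and *Klf2* windows fell in different places. In the *Klf1* window, 48.5% of fragments lay in open sites near the starts of other genes, 20.8% in the site inside *Klf1*, 11.6% in distal sites and 0% in a promoter domain of its own. The neighbors were *Dnase2a*, which encodes a lysosomal DNase and was covered in 34.1% of cells, *Syce2* (21.4%), *Gcdh* (18.0%), *Farsa* (12.7%), *Mast1* (9.11%) and *Rtbdn* (8.75%), all above *Klf1*. In the *Klf2* window, 45.2% of fragments lay in its own promoter domain and 34.2% in distal sites, the largest distal share among the members.

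The own promoter domain held 79.1% of the fragments of the *Klf10* window, 73.4% at *Klf6* and 72.1% at *Klf4*. It held 55.8% at *Klf13*, 47.6% at *Klf12* and 46.6% at *Klf3*. *Klf3* had a further 18.0% in its open run in intron 1. At *Klf12*, 42.4% of fragments lay in no open bin, against 10.4% to 19.1% in the other windows.

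**Figure D5:**
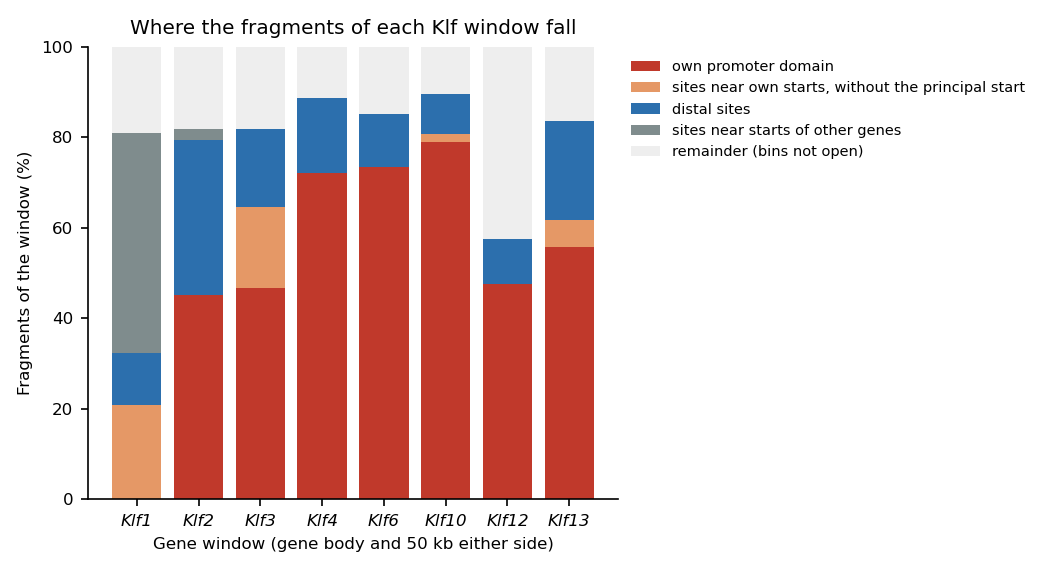
Percent of the fragments of each window (y axis) that fell in the own promoter domain, in sites near own starts that do not hold the principal start, in distal sites, in sites near starts of other genes, or in no open bin, for the 8 members (x axis). *Klf1* has no part in an own promoter domain and 48.5% near other genes, and *Klf2* has the largest distal part at 34.2%.

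A distal site was a run of open bins with no bin within 1 kb of an annotated protein-coding start. The 8 windows held 39 such sites, 2.94 per 100 kb, against 1.74 per 100 kb in the bodies and 50-kb flanks of all protein-coding genes and 1.22 over the chromosomes as a whole. The count was 16 with each cell thinned to 3000 fragments, 19 at the limit of 5% of cells, 66 at that of 1% and 22 with 25-kb flanks. Of the 39, 5 had the start of a transcript without coding annotation within 1 kb. *Klf2* and *Klf13* had 9 each, *Klf3* had 6, *Klf12* had 5, *Klf1* and *Klf10* had 3 each, and *Klf4* and *Klf6* had 2 each. Of the 39 sites, 34 were downstream of the member's start and 5 upstream, 4 of the latter at *Klf2* and 1 at *Klf6*. Each window held 50 kb upstream of the gene, but the gene body and 50 kb downstream. More of the searched sequence therefore lay downstream, and the imbalance was not set against this. Sites in introns of the member itself numbered 14, sites in other genes 10 and intergenic sites 15. A median of 5.37% of cells had a fragment end in a site, and 10 sites (25.6%) reached 10% of cells, against a median of 4.57% and 17.7% of sites for all 32122 distal sites.

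The most accessible distal site lay 23.1 kb upstream of *Klf2*, in intergenic sequence (chr8:72295001-72296500). It had 1503 fragments in 1036 cells, or 33.3% of cells (31.7% to 35.0%), and 66.1% of its fragments were short, a share near the 69.4% of the *Klf2* promoter. With each cell thinned to 3000 fragments, 11.1% of cells had a fragment end in it. Of all distal sites, 1.51% had as large a share of cells. The next at *Klf2* lay 47.0 kb downstream, inside *Eps15l1*, with 10.8% of cells, and 37.2 kb upstream with 10.7%. At the upstream edge of the window a site, described after its values were seen, had 4.31% of cells in the bin inside the window, and the whole site of 2 kb (chr8:72267501-72269500), mostly outside it, had 50.8%.

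*Klf13* had 7 distal sites in its intron 1. The strongest lay 41.9 kb downstream of the start (chr7:63896001-63898000), with 1201 fragments and 27.4% of cells (25.8% to 29.0%), and lay within 1 kb of the starts of transcripts of *Gm27252* that have no coding annotation. The second, 26.8 kb downstream (chr7:63910501-63913000), was the widest distal site of the 8 windows at 2.5 kb and had 23.1% of cells. An intergenic site 80.3 kb downstream had 10.2%. All of these lay below the 75.9% of the *Klf13* promoter.

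*Klf4* had a site 17.6 kb downstream, beyond the gene (chr4:55514501-55515500), with 802 fragments and 21.1% of cells, and another 51.8 kb downstream with 3.86%. The site of *Klf1* 11.3 kb downstream (chr8:84912501-84914500) had 675 fragments and 17.2% of cells (15.9% to 18.6%), and lay where *Dnase2a* and *Mast1* overlap, within 1 kb of the start of a transcript of *Dnase2a* without coding annotation. The other distal sites of that window lay 26.9 and 33.0 kb downstream, inside *Mast1*, with 8.69% and 2.54%. *Klf6* had a site 15.6 kb upstream (chr13:5845001-5846500) with 564 fragments and 15.3% of cells, and another 9.1 kb downstream with 5.53%.

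The leading sites of the remaining members were weaker than the leading sites above. *Klf10* had sites 52.7, 16.7 and 55.7 kb downstream with 10.4%, 9.43% and 4.83% of cells, the outer ones inside a long noncoding RNA gene. *Klf3* had its leading site 2.9 kb downstream in intron 1 with 7.95%, followed by sites 57.7 and 62.1 kb downstream with 6.31% and 5.08%. The 5 sites of *Klf12* were all in introns, each 1 bin wide, and had at most 3.86% of cells. The long *Klf12* gene thus had 0.973 distal sites per 100 kb, below the 1.74 of all gene windows, and *Klf2* had 8.77.

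The motif letters were counted in the 300 bp around the summits of the 39 distal sites and of all 32122. The KLF and SP box, the string that the members themselves bind, was present in 19 of 39 sites (48.7%), against 33.5% of all. It was in 7 of 9 sites of *Klf13* and in 0 of 5 of *Klf12*. GATA was in 2 sites (5.13%), against 14.5%, and the composite of E-box and GATA in 0, against 1.53%. AGGAAG was in 21 sites (53.8%, against 49.2%), CGGAAG in 3 (7.69%, against 9.30%), RUNX in 12 (30.8%, against 29.5%), AP-1 in 7 (17.9%, against 12.2%) and the CRE core in 2 (5.13%, against 4.74%). These are letter matches in few sites, and no enrichment was tested.

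The same letters were searched in the 300 bp around the principal starts of the members and of all protein-coding genes. The KLF and SP box was in the promoters of *Klf3*, *Klf4*, *Klf6*, *Klf10*, *Klf12* and *Klf13*, against 57.2% of all, and had no match at *Klf1* and *Klf2*. The composite of E-box and GATA was at *Klf1* alone among the members, against 0.457% of all. RUNX was at *Klf1* and *Klf13*, against 14.3%, and the CRE core at *Klf13*, against 8.28%. The other strings were in 0 members, against 34.4% of all for AGGAAG, 21.6% for CGGAAG, 7.95% for GATA and 5.73% for AP-1.

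The RefSeq windows, 250 bp before to 50 bp after the start, had an entry for 7 of the 8 members and gave other matches for some. *Klf2* then held a KLF and SP box, against 49.5% of all 32851 windows, and RUNX was at *Klf1* and not at *Klf13*, against 16.8%. The composite was again at *Klf1* alone, against 0.618%. The RefSeq start of *Klf12* is 134883 bp from the principal one, so the KLF and SP box and the AGGAAG match of that window are not in the open *Klf12* promoter.

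The rest of the family was set beside the members. Of the 9 other *Klf* genes, 8 were open. Those that like *Klf10* and *Klf13* encode Sin3A-binding factors ranged widely, with *Klf11* at 64.3% of cells, *Klf16* at 62.8%, *Klf9* at 43.9% and *Klf14* at 6.24%. *Klf7* (53.2%) and *Klf5* (25.8%), which encode activators, lay between these values. *Klf15* (7.30%) and *Klf8* (3.86%) were open at a low level, and *Klf17* (0.225%) was not. *Klf1* lay below all of these but *Klf17*. Of the 9 *Sp* genes, 7 were open, with *Sp1* at 76.9% and *Sp2* at 76.0%, close to *Klf13*, and *Sp6* lowest at 0.965%.

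*Klf1* was also compared with a list of 15 erythroid genes, most of them known targets of KLF1, of which 5 had an open promoter and the median share was 0.997%. *Tfrc*, the transferrin receptor, which dividing cells of many kinds use, was the highest at 51.8%. Genes for red cell membrane proteins lay on both sides of *Klf1*, with *Epb42* (11.2%) and *Sptb* (7.08%) above it and *Add2* (1.19%), *Slc4a1* (0.997%), *Rhag* (0.450%) and *Ermap* (0.290%) below it. *Hba-a1* (0.129%), *Alas2* (0.193%) and *Hbb-bt* (0.611%), for globin chains and heme synthesis, were also below it. Olfactory receptor genes, which blood cells are not known to use, gave the background, with 5 of 1134 open and a median of 0.0322%. *Klf1* was thus between this background and the other members, and above 9 of the 15 erythroid genes.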

How the data were processed

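HSCs of 1 preparation were profiled by DOGMA-seq. Reads were mapped to mm10 by the authors (Cell Ranger ARC 2.0.2, per the file headers), who deposited counts of fragments and UMIs per barcode, and each unique fragment with its count of read pairs, none normalized. The sources used here do not say whether fragment ends were shifted for the transposase. Passing cells had more than 3000 fragments in peaks; doublets were kept. Fragment ends were counted in 500-bp bins with Python 3.11.15, pysam 0.24.0, scipy 1.17.1 and pandas 2.3.3, and placed on GENCODE M21 genes. Bin counts, runs of open bins and intervals of shares were tested on simulated sites well above the open limit. Sites near the limit and the classes of sites were not tested so. With 1 library, exact 95% Clopper-Pearson and Poisson intervals stand in for tests, and a count of 0 is set against 3 counts. Named were the members, the other *Klf* and *Sp* genes, an erythroid list, markers, neighboring genes and up to 3 distal sites of a member; the *Klf1* exon 2 site, the *Klf2* edge site and *Gm27252* were added after values were seen. Members and lists were chosen with earlier results of these data known. Cells, fragment placement, length, read support, depth, start, windows, bins and limits were varied. RNA per gene and antibody tags were not analysed here, nor were protein sequences.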

Additional observations from a re-analysis of the deposited data

How the results depend on the processing

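Each setting was varied alone, in 12 alternatives. *Klf1* had the lowest and *Klf13* the highest promoter share in each of the 5 alternatives that changed the shares. In the alternatives that gave a count of open members, *Klf1* alone was not open, except with 1000-bp bins and the limit of 1% of cells, where 8 members were open. With fragments shorter than a nucleosome core the *Klf1* share was 0.386%, its ratio to the median of the others 0.00651, the open bins 3.08% and the widest domain 4000 bp. With at least 2 read pairs the *Klf1* share was 2.09%, the open bins 5.11% and the widest domain 4500 bp. Thinning each cell to 3000 fragments gave a *Klf1* share of 0.804%, 16 distal sites, 2.48% open bins and a widest domain of 4000 bp. With 250 bp either side of the start the *Klf1* share was 1.74% and the ratio 0.0235. All called cells gave a widest domain of 4500 bp. Bins of 1000 bp gave 10.4% open bins. The limit of 1% gave 66 distal sites and 10.6% open bins, and that of 5% gave 19 distal sites, 3.23% open bins and a widest domain of 4000 bp. Flanks of 25 kb gave 22 distal sites. Counting fragments wherever they overlap and taking the first annotated start left all 44 values as they were. Of the other 151 values, 68 stayed within the counting interval or 1.5 times and 83 moved. The cause was not tested. No paired analysis was possible because there is 1 preparation. Depth limits weak sites, since a share depends on the fragments per cell.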
